A study of Mus musculus with 12 samples.

Results

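The genes of the mouse major histocompatibility complex (MHC) and of antigen presentation were examined in heart RNA of 2 Lemd2 models. They were chosen by symbol alone, as every row of the count table that begins with H2- plus B2m, Tap1, Tap2, Tapbp, Psmb8, Psmb9, Cd74, Ciita and Nlrc5, which gave 53 of 24062 genes, 44 of them with an H2- symbol. By symbol, 32 are class I genes with 7 class I accessory genes, 10 are class II genes with 2 class II accessory genes, and H2-Ke2 and H2-Ke6 belong to neither class. Adult hearts came from 2-month-old Lemd2 WT mice and from Lemd2 KI/KI mice, homozygous in every cell for the c.T38>G allele, made by CRISPR/Cas9 in B6C3F1 zygotes with founders mated to C57BL/6N. Neonatal hearts, taken at postnatal day 1 (P1), came from Lemd2-floxed mice, which carry loxP sites around exon 1 and no Cre, and from cKO mice that also carry Cre under the α-MHC (Myh6) promoter, so that deletion is limited to cardiomyocytes and the other cells of the heart keep Lemd2. Each group held 3 mice and each mouse gave 1 library of polyA RNA. Whole hearts were sequenced, so fewer cells of a type and less RNA per cell cannot be told apart.

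MHC class I molecules sit on nearly all nucleated cells and show peptides of the cell's own proteins to CD8 T cells. The heavy chain pairs with β2-microglobulin (B2m), the immunoproteasome subunits Psmb8 and Psmb9 cut the peptides, Tap1 and Tap2 carry them into the endoplasmic reticulum, Tapbp (tapasin) helps to load them, and Nlrc5 switches the class I genes on. MHC class II molecules are made mainly by dendritic cells, B cells and some macrophages, and show peptides of engulfed proteins to CD4 T cells. Cd74, the invariant chain, guards the class II groove, H2-DM exchanges its content, and Ciita is the class II master regulator. Interferon gamma raises both sets of genes.

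Library totals ranged from 37063669 to 44789753 counts, and levels are given as CPM, the counts scaled to a common library total, after TMM normalization over the 6 hearts of a comparison unless 12 hearts are named. Lemd2 itself, over 12 hearts, lay at 32.0 to 34.8 CPM in WT, 24.8 to 25.7 in KI/KI, 24.3 to 25.4 in floxed and 6.59 to 13.1 in cKO hearts. Its log2 fold change was -0.39 in KI/KI (edgeR adjusted p = 0.186) and -1.27 in cKO (adjusted p = 0.0159). Some hearts held transcripts from a list of lung epithelium markers, mainly Scgb1a1 and Scgb3a2 where the sum was high. Over 12 hearts, Scgb1a1 had 95.3 and Scgb3a2 25.3 CPM in WT 3, and 34.1 and 6.61 CPM in KI/KI 4. Sftpc was 0 in both of these hearts, and Ager lay at 0.37 to 0.46 CPM in all adult hearts. The summed CPM of 10 lung markers was 129 in WT 3 and 42.7 in KI/KI 4 against 0.726 or less in the other adult hearts, and at P1 it was 256, 429 and 2.75 in the floxed and 179, 3.81 and 23.7 in the cKO hearts. Adult values were also computed without WT 3 and KI/KI 4, and P1 values with the lung markers as a covariate, since only floxed 3 and cKO 5 were low.

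Of the 53 genes, 9 were listed at 0 in all 12 libraries, 14 stayed under 10 counts in every library, and 30 reached 10 counts in at least 1. The 9 at 0 were H2-Ea-ps, H2-M10.1, H2-M10.3, H2-M10.4, H2-M10.6, H2-Q6, H2-Q7, H2-Q9 and H2-T9. H2-Ea-ps carries the symbol of a pseudogene because the C57BL/6 haplotype does not make the class II E alpha chain. The low 14 were H2-Bl, H2-Eb2, H2-L, H2-M1, H2-M2, H2-M9, H2-M10.2, H2-M10.5, H2-M11, H2-Oa, H2-Q1, H2-Q2, H2-Q8 and H2-T3. For a count of 0, the floor of 3 counts allows up to 0.0965 CPM in the library where it is highest, for counting error only. A filter on low counts left 27 of the 53 genes to test in adult hearts and 24 at P1, with 25 tested in neither.

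On the GRCm38 build 45 of the genes lie on chromosome 17 between positions 33915899 and 37483552, B2m lies on chromosome 2 (122147686 to 122153083), Ciita on chromosome 16 and Nlrc5 on chromosome 8. H2-L, H2-Q8, H2-Q9 and H2-T9 had no entry in the annotation used. Class I genes resemble each other closely, so part of their reads can match more than 1 gene. Of all 75-base windows in the annotated transcripts, 21.2% in H2-Q5, 18.5% in H2-T22, 17.9% in H2-Q6, 17% in H2-Q7, 16% in H2-T10, 12.5% in H2-Q10, 5.4% in H2-D1 and 3.1% in H2-K1 also occurred in another gene. In H2-T24 the share was 0.459%, and in B2m, Tap1, Tap2, Psmb8, Psmb9, H2-Aa, H2-Ab1 and H2-Eb1 it was 0. How the authors' counting treated such reads and the strand is not given in the sources used here, so levels of H2-Q5, H2-T10, H2-T22 and H2-Q10 are uncertain. The 0 of H2-Q6 and H2-Q7 in every library is uncertain for the same reason, and the floor does not cover it. H2-Q9, also at 0, had no annotation entry, so its shared windows were not measured. H2-Ke6 shared 65.5% of its windows with the overlapping gene Gm20427.

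Promoters of these genes carry known letters that their regulators read, and 8 are shown because the genes they precede carry the main comparisons below. Each line gives the 250 bases before the start of transcription in RefSeq on GRCm38.p6, 5′ to 3′ along the gene. Capitals mark 3 motifs, searched on both strands. The interferon-stimulated response element core was taken as GAAA repeated once after any 2 bases. The Y box core, which NF-Y binds, was taken as ATTGG. The X2 box core was taken as TGACG, and none of the 3 motifs contains another. The positions are chr2:122147437-122147686 on the plus strand for B2m, chr17:34000334-34000583 on the minus strand for H2-K1, chr17:35262844-35263093 on the plus strand for H2-D1, chr17:35379367-35379616 on the plus strand for H2-Q4, chr17:36032702-36032951 on the minus strand for H2-T23, chr17:34187306-34187555 on the plus strand for Tap1, chr17:34287824-34288073 on the minus strand for H2-Aa and chr17:34305617-34305866 on the plus strand for H2-Eb1.
B2m: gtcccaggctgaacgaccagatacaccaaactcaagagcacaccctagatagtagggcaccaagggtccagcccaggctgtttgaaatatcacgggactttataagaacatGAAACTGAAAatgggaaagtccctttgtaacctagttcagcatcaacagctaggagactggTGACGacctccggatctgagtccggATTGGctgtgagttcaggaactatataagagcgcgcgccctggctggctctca
H2-K1: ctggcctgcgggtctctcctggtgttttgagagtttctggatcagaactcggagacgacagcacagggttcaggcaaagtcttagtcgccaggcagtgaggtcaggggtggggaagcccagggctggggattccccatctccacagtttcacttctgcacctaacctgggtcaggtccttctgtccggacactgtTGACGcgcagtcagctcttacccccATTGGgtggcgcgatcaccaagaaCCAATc
H2-D1: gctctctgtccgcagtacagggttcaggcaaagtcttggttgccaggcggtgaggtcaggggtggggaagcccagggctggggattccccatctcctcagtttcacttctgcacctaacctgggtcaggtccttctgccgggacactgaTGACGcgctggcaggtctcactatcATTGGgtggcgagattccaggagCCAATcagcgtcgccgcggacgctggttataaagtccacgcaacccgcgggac
H2-Q4: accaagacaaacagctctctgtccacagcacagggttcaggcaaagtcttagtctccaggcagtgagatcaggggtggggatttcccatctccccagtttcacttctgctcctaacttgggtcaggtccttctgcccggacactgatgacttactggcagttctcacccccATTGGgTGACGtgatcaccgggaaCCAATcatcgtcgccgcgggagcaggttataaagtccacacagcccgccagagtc
H2-T23: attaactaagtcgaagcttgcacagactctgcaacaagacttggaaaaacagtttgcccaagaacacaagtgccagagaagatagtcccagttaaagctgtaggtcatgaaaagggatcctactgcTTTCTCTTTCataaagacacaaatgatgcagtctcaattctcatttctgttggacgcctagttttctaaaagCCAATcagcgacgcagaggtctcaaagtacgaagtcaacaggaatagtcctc
Tap1: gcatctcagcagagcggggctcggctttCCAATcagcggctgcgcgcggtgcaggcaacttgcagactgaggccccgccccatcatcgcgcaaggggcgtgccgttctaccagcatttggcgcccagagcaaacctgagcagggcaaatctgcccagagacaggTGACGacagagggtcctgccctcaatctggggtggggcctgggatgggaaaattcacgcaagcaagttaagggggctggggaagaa
H2-Aa: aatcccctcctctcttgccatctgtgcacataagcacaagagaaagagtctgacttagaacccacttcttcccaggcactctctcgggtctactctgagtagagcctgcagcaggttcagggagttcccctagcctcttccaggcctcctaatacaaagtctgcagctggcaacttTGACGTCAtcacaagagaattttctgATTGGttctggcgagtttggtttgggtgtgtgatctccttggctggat
H2-Eb1: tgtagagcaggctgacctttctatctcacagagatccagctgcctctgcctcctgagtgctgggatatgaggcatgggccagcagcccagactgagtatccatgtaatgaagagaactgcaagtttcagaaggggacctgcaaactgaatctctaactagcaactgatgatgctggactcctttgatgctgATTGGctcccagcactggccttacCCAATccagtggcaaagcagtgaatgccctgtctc

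In B2m the X2 core began 78 bases and the Y core 53 bases before the start, and in the class II gene H2-Aa they began 74 and 48 bases before it. H2-D1 had the same pair at 101 and 76 bases, with a second Y core on the other strand. H2-T23 held the interferon element on the minus strand and 1 Y core, and no X2 core in this window. Among the 53 genes, 36 had at least 1 promoter entry of 300 bases (250 before and 50 after the start), 39 entries in all. The Y core stood in 34 of the 39 (87.2%) against 37.4% of all 32851 promoters, and the X2 core in 16 (41%) against 20.8%. An X2 core followed on the same strand by a Y core that began 10 to 30 bases further on was found in 7 of the 39 (17.9%) and in 0.7% of all promoters. The 7 entries belonged to B2m, H2-K1 (which has 2 entries), H2-Aa, H2-D1, H2-Q7 and H2-M3. The interferon core was present in 3 of the 39, those of B2m, H2-T23 and H2-T22 (7.69%, against 3.44% of all promoters). Only exact matches were counted, so a promoter without the interferon core as defined here may still hold a variant of that element. A match describes letters and is not a bound site.

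In adult WT hearts the levels per kilobase of annotated exon, over 12 hearts, put B2m first at 262 ± 14.2 CPM per kb (SD, n = 3). H2-K1 followed at 51.2 ± 4.4, Cd74 at 43.3 ± 16.9, Tapbp at 27.9 ± 0.769, H2-Ke6 at 27.3 ± 0.757, H2-D1 at 22.2 ± 2.24 and H2-Ke2 at 20.6 ± 1.24. H2-K1 and Cd74 did not differ beyond their spread, nor did Tapbp and H2-Ke6, nor H2-D1 and H2-Ke2. Then came H2-Q4 at 13.5 ± 0.129, H2-Eb1 at 13.4 ± 4.49, Tap2 at 9.81 ± 0.953, H2-Aa at 9.51 ± 3.49 and H2-Ab1 at 8.85 ± 3.8 CPM per kb, with overlapping ranges among Tap2, H2-Aa and H2-Ab1. The transactivators were low, with Nlrc5 at 1.06 ± 0.182 and Ciita at 0.29 ± 0.0936. The SDs of the class II genes were large beside their means because WT 3 stood above WT 1 and WT 2.

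In P1 floxed hearts B2m was again first at 88.4 ± 7.26 CPM per kb, but H2-Ke2 (prefoldin subunit 6, no antigen presentation gene) was second at 18.9 ± 1.06 and H2-K1 had 6.83 ± 0.763. Cd74 at 1.13 ± 0.209 ranked 11 and H2-Aa at 0.181 ± 0.0513 ranked 20 of the 49 genes with an annotated length, where they ranked 3 and 11 in WT hearts. As CPM over 12 hearts, the WT mean over the floxed mean was 52.5 for H2-Aa, 38.4 for H2-Ab1, 38.3 for Cd74, 21.1 for H2-Eb1 and 20.4 for Nlrc5. It was 7.5 for H2-K1, 4.26 for H2-D1, 2.97 for B2m and 1.09 for H2-Ke2. Of 29 genes with 10 or more counts in some WT or floxed heart, 25 were higher in every WT than in every floxed heart. The share of all genes that did so was not computed, so this count has no background to compare it with. The 4 exceptions were H2-DMb2, H2-Ke2, H2-M5 and H2-Q10. Age, line and genotype cannot be told apart in these ratios, so they were not tested.

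In adult hearts most class I genes had higher values in KI/KI than in WT. None of the genes examined passed an adjusted p of 0.05 in the edgeR quasi-likelihood test, as for all 14592 genes tested (0% called higher and 0% called lower, smallest adjusted p 0.0743, with 2331 genes at an unadjusted p under 0.05). Of 10 tested class I genes, 8 had every KI/KI heart above every WT heart, where 11.1% of all tested genes did, and the median log2 fold change was 0.52 against 0.002 over all genes. These 8 were H2-K1, H2-D1, H2-Q4, H2-Q5, H2-T10, H2-T23, H2-T24 and H2-M3, and each had an unadjusted p under 0.05, as did 14 of the 27 genes tested. DESeq2 called 6 class I genes and B2m higher, where it called 2.16% of all genes higher and 1.47% lower. Without KI/KI 4 edgeR called B2m (log2 fold change 0.75, adjusted p = 0.0418) and H2-Q4 (0.60, adjusted p = 0.038) higher. The share of all genes called in that fit was not computed, so these calls have no background to compare them with.

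The classical class I genes H2-K1 and H2-D1 encode the heavy chains that present peptide to CD8 T cells. H2-K1 lay at 131, 123 and 148 CPM in WT 1 to 3 and at 161, 217 and 187 in KI/KI 4 to 6. The groups did not overlap, and KI/KI 4 was nearest to WT 3. The log2 fold change was 0.49 ± 0.13 (SE), or 1.41-fold, with an adjusted p of 0.218 in edgeR and 0.0169 in DESeq2. H2-D1 lay at 48.9, 46.5 and 57.4 CPM in WT and at 59.2, 79.4 and 70.8 in KI/KI. Again no KI/KI heart fell to a WT value, although KI/KI 4 and WT 3 stood close together. The difference was 0.46 ± 0.13 on the log2 scale (adjusted p = 0.24 in edgeR and 0.0464 in DESeq2).

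The other class I genes lie in the Q, T and M regions, and several present narrow sets of ligands. H2-Q4 lay at 30.7, 31.4 and 31.6 CPM in WT and at 41.5, 48.9 and 45.5 in KI/KI. WT hearts were nearly equal and all KI/KI hearts stood above them, with a log2 fold change of 0.54 ± 0.07 (adjusted p = 0.186 in edgeR and 6.7e-06 in DESeq2). H2-Q5, annotated as a polymorphic pseudogene, lay at 1.53, 1.84 and 1.94 CPM in WT and at 3.26, 4.30 and 3.43 in KI/KI. The groups did not overlap, and its 2.08-fold difference (log2 1.05 ± 0.18, edgeR adjusted p = 0.186) was the largest positive one among the genes tested here. H2-T23 encodes Qa-1, which shows leader peptides of other class I chains to natural killer cells. It lay at 18.05, 16.2 and 19.5 CPM in WT and at 22.8, 28.8 and 28.9 in KI/KI, so the groups did not overlap and KI/KI 4 was the lowest of its group. Its log2 fold change was 0.59 ± 0.12 (adjusted p = 0.191 in edgeR and 0.0036 in DESeq2). H2-T24 lay at 11.1, 12.8 and 12.5 CPM in WT and at 14.9, 19.0 and 18.9 in KI/KI, also without overlap (0.54 ± 0.12). H2-M3, which presents N-formylated peptides, differed by 0.51 ± 0.14 and H2-T10, annotated like H2-Q5 as a polymorphic pseudogene, by 0.78 ± 0.26. H2-K2, annotated as a pseudogene, lay within the WT spread at 0.01 ± 0.20. H2-Q10, whose product is secreted by liver, had 1.15 CPM in WT 3 and 0.318 or less in the other adult hearts.

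**Figure D1:**
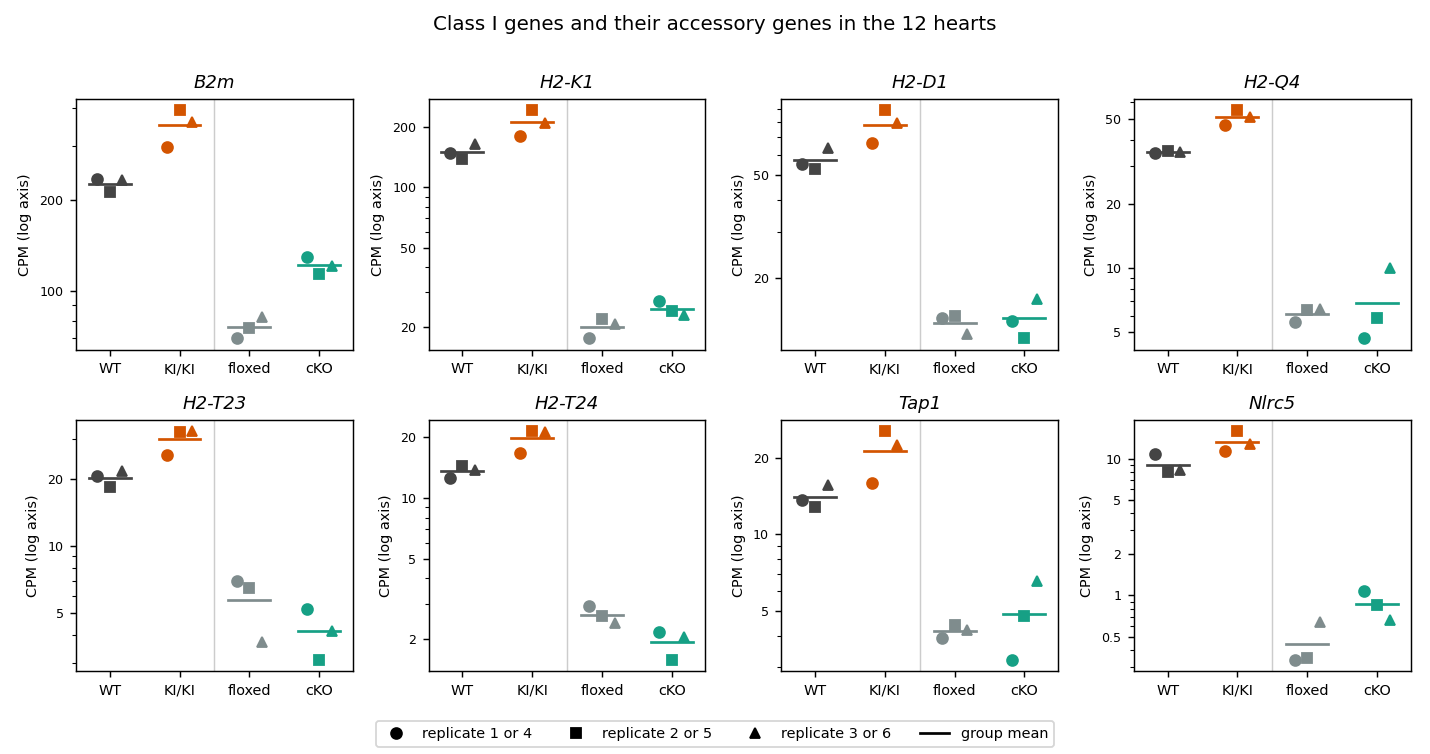
Each panel plots 1 gene, with CPM over 12 hearts on a log axis and the 4 groups along the horizontal axis, where a symbol is 1 heart and a line the group mean. In B2m, H2-K1, H2-D1, H2-Q4, H2-T23, H2-T24, Tap1 and Nlrc5 all KI/KI hearts stand above all WT hearts, while of these genes B2m, H2-K1 and Nlrc5 have every cKO heart above every floxed heart and H2-T24 has every cKO heart below.

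Among the 7 class I accessory genes, 4 had KI/KI hearts all above WT hearts in the adult comparison, where 11.1% of all tested genes did. All 7 had positive log2 fold changes (median 0.46). B2m, the shared light chain, lay at 206, 187 and 209 CPM in WT and at 265, 350 and 321 in KI/KI. The gap between the groups was wider than the spread of the WT hearts, with a log2 fold change of 0.64 ± 0.11, or 1.56-fold. Its adjusted p was 0.187 in edgeR and 9.1e-05 in DESeq2. Nlrc5, the class I transactivator, lay at 9.54, 7.10 and 7.41 CPM in WT and at 10.1, 14.1 and 11.4 in KI/KI. The groups did not overlap, but KI/KI 4 was only just above WT 1 (0.57 ± 0.17).

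Tap1 and Tap2 form the peptide transporter. Tap1 lay at 12.1, 11.3 and 14.1 CPM in WT and at 14.1, 22.5 and 19.9 in KI/KI (log2 0.60 ± 0.18). WT 3 and KI/KI 4 were almost equal, and the other KI/KI hearts were higher. Tap2 lay at 31.5, 30.4 and 37.1 CPM in WT and at 37.5, 39.7 and 41.1 in KI/KI (0.26 ± 0.09), again with KI/KI 4 just above WT 3. Tapbp, whose product holds empty class I molecules at the transporter, lay at 87.8, 88.4 and 94.2 CPM in WT and at 89.1, 100.03 and 101 in KI/KI, with overlap (0.11 ± 0.07). The immunoproteasome subunits overlapped as well. Psmb8 lay at 12.4, 11.9 and 14.5 CPM in WT and at 13.2, 16.2 and 17.3 in KI/KI (0.28 ± 0.13). Psmb9 lay at 4.60, 4.32 and 5.71 in WT and at 5.59, 7.70 and 6.83 in KI/KI (0.46 ± 0.17). In both genes KI/KI 4 fell below WT 3, and KI/KI 5 and KI/KI 6 lay above all WT hearts.

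H2-Ke6 and H2-Ke2 had lower values in KI/KI hearts, without a call. H2-Ke6, a hydroxysteroid dehydrogenase gene, lay at 40.2, 40.5 and 39.2 CPM in WT and at 35.3, 26.5 and 30.5 in KI/KI (log2 -0.37 ± 0.10, adjusted p = 0.236). H2-Ke2 lay at 20.8 to 23.1 CPM in WT and at 16.4 to 20.7 in KI/KI (-0.21 ± 0.10). In both, all KI/KI hearts were below all WT hearts, as in 11.3% of all tested genes. With raw library totals in place of TMM, 11 genes were higher and 1 lower without overlap, where TMM gave 12 and 2.

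The class II genes of adult hearts did not separate after normalization over the 6 hearts. None of 6 tested class II genes and neither of both accessory genes had groups apart (22.4% of all tested genes did), although all 8 log2 fold changes were positive. The median over the 6 was 0.24. H2-Aa, the alpha chain of the A molecule, lay at 23.6, 26.8 and 46.3 CPM in WT and at 39.8, 23.1 and 38.7 in KI/KI. Its partner H2-Ab1 lay at 15.04, 15.2 and 30.7 in WT and at 25.1, 17.6 and 27.3 in KI/KI. In both, WT 3 was the highest of the 6 hearts, and KI/KI 5 was well below KI/KI 4 and KI/KI 6. The log2 fold changes were 0.07 ± 0.30 for H2-Aa and 0.20 ± 0.31 for H2-Ab1, with edgeR adjusted p of 0.923 and 0.762. H2-Eb1, the E beta chain, lay at 18.3, 18.9 and 32.6 CPM in WT and at 30.1, 21.5 and 31.4 in KI/KI. The same hearts were high and low, and the difference was 0.25 ± 0.25.

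Cd74 repeated this order, with 49.8, 49.9 and 95.0 CPM in WT and 85.1, 49.7 and 84.3 in KI/KI (0.17 ± 0.31). KI/KI 5, the heart with the highest B2m and H2-K1, thus had a Cd74 level like WT 1 and WT 2. H2-DMa, a chain of the peptide exchanger, lay at 2.21, 2.32 and 3.95 CPM in WT and at 3.68, 2.95 and 3.35 in KI/KI (0.23 ± 0.25). H2-DMb1 lay at 1.99, 1.43 and 2.31 in WT and at 2.52, 2.28 and 2.58 in KI/KI (0.37 ± 0.21). Only KI/KI 5 kept the H2-DMb1 groups from being apart, since it was just below WT 3. Normalized over 12 hearts, KI/KI 5 was just above WT 3 (2.565 and 2.557 CPM), so this overlap depends on the normalization. Ciita lay at 1.79, 2.21 and 3.38 CPM in WT and at 3.52, 2.84 and 3.18 in KI/KI (0.37 ± 0.25), again with WT 3 among the KI/KI hearts. H2-Ob, a chain that restrains H2-DM, had 0.594 to 1.57 CPM in WT and 1.03 to 1.43 in KI/KI. H2-DMb2 was not tested. Over 12 hearts it had 0.161, 0.122 and 0.789 CPM in WT, 0.506, 0.242 and 0.253 in KI/KI, 0.0903, 0.130 and 0.149 in floxed and 0.0599, 0.167 and 0.146 in cKO hearts, with WT 3 the highest of all.

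**Figure D2:**
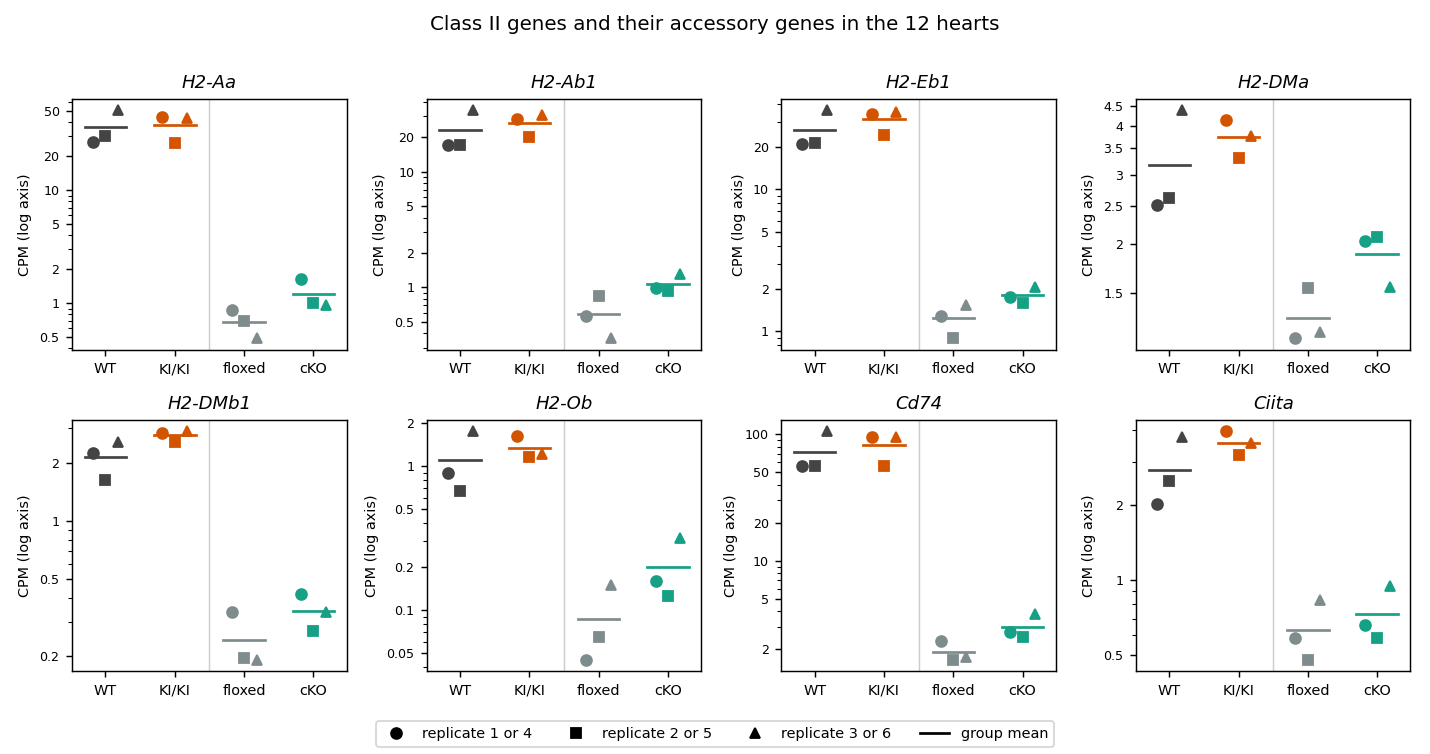
Each panel plots 1 gene, with CPM over 12 hearts on a log axis and the 4 groups along the horizontal axis, where a symbol is 1 heart and a line the group mean. In the adult panels WT 3 (triangle) lies with the KI/KI hearts, except that in H2-DMb1 it lies just below the lowest of them (2.557 against 2.565 CPM). For H2-Aa, H2-Ab1, H2-Eb1 and Cd74 all cKO hearts lie above all floxed hearts at levels near 1 to 4 CPM.

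The high WT 3 and KI/KI 4 values coincided with lung markers in both hearts, at 129 and 42.7 CPM. B-cell markers without Blk were also highest there, at 7.92 and 6.02 summed CPM against 1.38 to 3.34 in the other adult hearts. KI/KI 6 had high class II levels with 0.562 CPM of lung markers and 2.84 CPM of these B-cell markers. With WT 3 and KI/KI 4 left out, the median log2 fold change was 0.67 for class I and 0.51 for class II, and no gene was called. The log2 fold changes were then 0.29 for H2-Aa, 0.57 for H2-Ab1, 0.51 for H2-Eb1, 0.47 for H2-DMa, 0.51 for H2-DMb1, 0.60 for H2-Ob, 0.43 for Cd74 and 0.58 for Ciita, with edgeR adjusted p from 0.197 to 0.516. The 8 class I genes that were apart had 0.59 to 1.20, and B2m 0.77 (adjusted p = 0.0757). In the fits that left out 1 heart H2-Ab1 ran from 0.03 to 0.63, H2-Eb1 from 0.11 to 0.58 and Cd74 from 0.01 to 0.55. The class II median depended on single hearts as well. It was 0.03 without WT 2 and 0.56 without WT 3.

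At P1, B2m was the only gene of the 24 tested that was called (1 higher and 0 lower at an adjusted p under 0.05, where 9.15% of all 15317 tested genes were called higher and 7.31% lower). It lay at 79.2, 85.04 and 91.7 CPM in the floxed hearts and at 149, 128 and 134 in the cKO hearts. All cKO hearts stood clear of all floxed hearts, with a log2 fold change of 0.68 ± 0.09, or 1.598-fold, and an edgeR adjusted p of 0.00871. The call held in 5 of the 6 fits that left out 1 heart. Without floxed 1 the log2 fold change was 0.61 and the adjusted p 0.0553. With lung markers as a covariate it was 0.68 (adjusted p = 0.0155). No gene passed the 2-fold threshold.

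No class I heavy chain gene was called at P1. Among 8 tested, 1 was higher (H2-K1) and 1 lower (H2-T24) without overlap, where 20.9% and 18.8% of all tested genes were, and the median log2 fold change was 0.06. H2-K1 lay at 19.9, 24.6 and 22.98 CPM in floxed and at 31.0, 27.0 and 25.4 in cKO hearts (0.30 ± 0.12, adjusted p = 0.137). The cKO hearts were all higher, but by little. H2-D1 lay at 15.8, 15.9 and 13.5 CPM in floxed and at 15.6, 13.0 and 18.4 in cKO hearts, fully overlapping (0.05 ± 0.15). H2-T24 lay at 3.30, 2.92 and 2.68 CPM in floxed and at 2.50, 1.77 and 2.26 in cKO hearts, where all cKO hearts were lower (-0.45 ± 0.21, adjusted p = 0.181). H2-T23 had 7.92, 7.26 and 4.15 CPM in floxed and 5.99, 3.48 and 4.63 in cKO hearts (-0.46 ± 0.30), with overlap through floxed 3. H2-Q4, H2-M3, H2-K2 and H2-M5 overlapped, with log2 fold changes from 0.03 to 0.61. H2-Ke6 lay at 20.8 to 21.4 CPM in floxed and at 15.1, 17.2 and 21.9 in cKO hearts (-0.23 ± 0.14), and without cKO 6 it was called lower (-0.40, adjusted p = 0.0433). The share of all genes called without cKO 6 was not computed.

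Of the 7 class I accessory genes at P1, B2m, Nlrc5 and Psmb9 had all cKO hearts above all floxed hearts, as did 20.9% of all tested genes. Nlrc5 lay at 0.383, 0.390 and 0.712 CPM in floxed and at 1.24, 0.957 and 0.727 in cKO hearts (log2 0.97 ± 0.38, adjusted p = 0.122), from 15 to 54 counts per library. The lowest cKO heart was barely above the highest floxed heart. Psmb9 lay at 0.460, 0.487 and 0.475 in floxed and at 0.666, 0.560 and 1.08 in cKO hearts (0.68 ± 0.34, adjusted p = 0.207), from 18 to 40 counts. cKO 6 was the highest heart for Psmb9, and it was also the highest of the 6 hearts for Tap1, Tap2 and Psmb8. Tap1 lay at 4.42, 4.94 and 4.70 CPM in floxed and at 3.70, 5.37 and 7.27 in cKO hearts (0.21 ± 0.25). Tap2 lay at 7.90, 7.33 and 6.60 in floxed and at 5.31, 6.33 and 10.6 in cKO hearts (0.01 ± 0.26). Both transporter genes overlapped, and cKO 4 was the lowest of the 6 hearts in both. Psmb8 lay at 2.22, 1.56 and 2.42 CPM in floxed and at 2.89, 1.94 and 4.12 in cKO hearts (0.52 ± 0.32). Tapbp lay at 49.5, 52.1 and 48.7 in floxed and at 50.5, 46.2 and 50.2 in cKO hearts (-0.04 ± 0.08). Neither gene separated the groups, and Tapbp was nearly level in all 6 hearts. Without cKO 6 the log2 fold changes of Tap1 and Tap2 were -0.06 and -0.33, and the class I median was -0.15.

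Class II genes were low at P1, with higher values in the cKO hearts and no call. All 5 tested had positive log2 fold changes, from 0.51 to 0.85 with a median of 0.55. None passed an adjusted p of 0.05 in edgeR or DESeq2, and 0 had an unadjusted p under it in edgeR, against 34.3% of all tested genes. In 3 all cKO hearts were above all floxed hearts, as in 20.9% of all tested genes. H2-Aa lay at 0.997, 0.779 and 0.546 CPM in floxed and at 1.91, 1.12 and 1.08 in cKO hearts, from 23 to 83 counts (0.82 ± 0.36, adjusted p = 0.161). H2-Ab1 lay at 0.639, 0.950 and 0.404 in floxed and at 1.13, 1.05 and 1.45 in cKO hearts, from 17 to 54 counts (0.85 ± 0.37, adjusted p = 0.154). The cKO hearts were above the floxed hearts in both, by a margin smaller than the spread within a group. H2-Eb1 lay at 1.46, 0.999 and 1.71 CPM in floxed and at 2.00, 1.77 and 2.26 in cKO hearts (0.53 ± 0.27). Cd74 lay at 2.61, 1.85 and 1.95 in floxed and at 3.12, 2.80 and 4.20 in cKO hearts (0.65 ± 0.24, adjusted p = 0.108). Both were apart, and Cd74 was the class II accessory gene with an unadjusted p under 0.05. H2-DMa lay at 1.30, 1.73 and 1.33 CPM in floxed and at 2.34, 2.33 and 1.72 in cKO hearts, where cKO 6 just overlapped floxed 2 (0.55 ± 0.24). H2-DMb1 lay at 0.383, 0.219 and 0.214 in floxed and at 0.482, 0.303 and 0.377 in cKO hearts, from 9 to 21 counts (0.51 ± 0.40). Ciita lay at 0.665, 0.536 and 0.926 in floxed and at 0.758, 0.654 and 1.05 in cKO hearts (0.20 ± 0.34). The regulator thus overlapped fully, at 22 to 39 counts per library. With lung markers as a covariate the P1 medians were 0.11 for class I and 0.63 for class II, with 0.99 for H2-Aa (adjusted p = 0.0591) and 1.06 for H2-Ab1 (adjusted p = 0.0778).

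**Figure D3:**
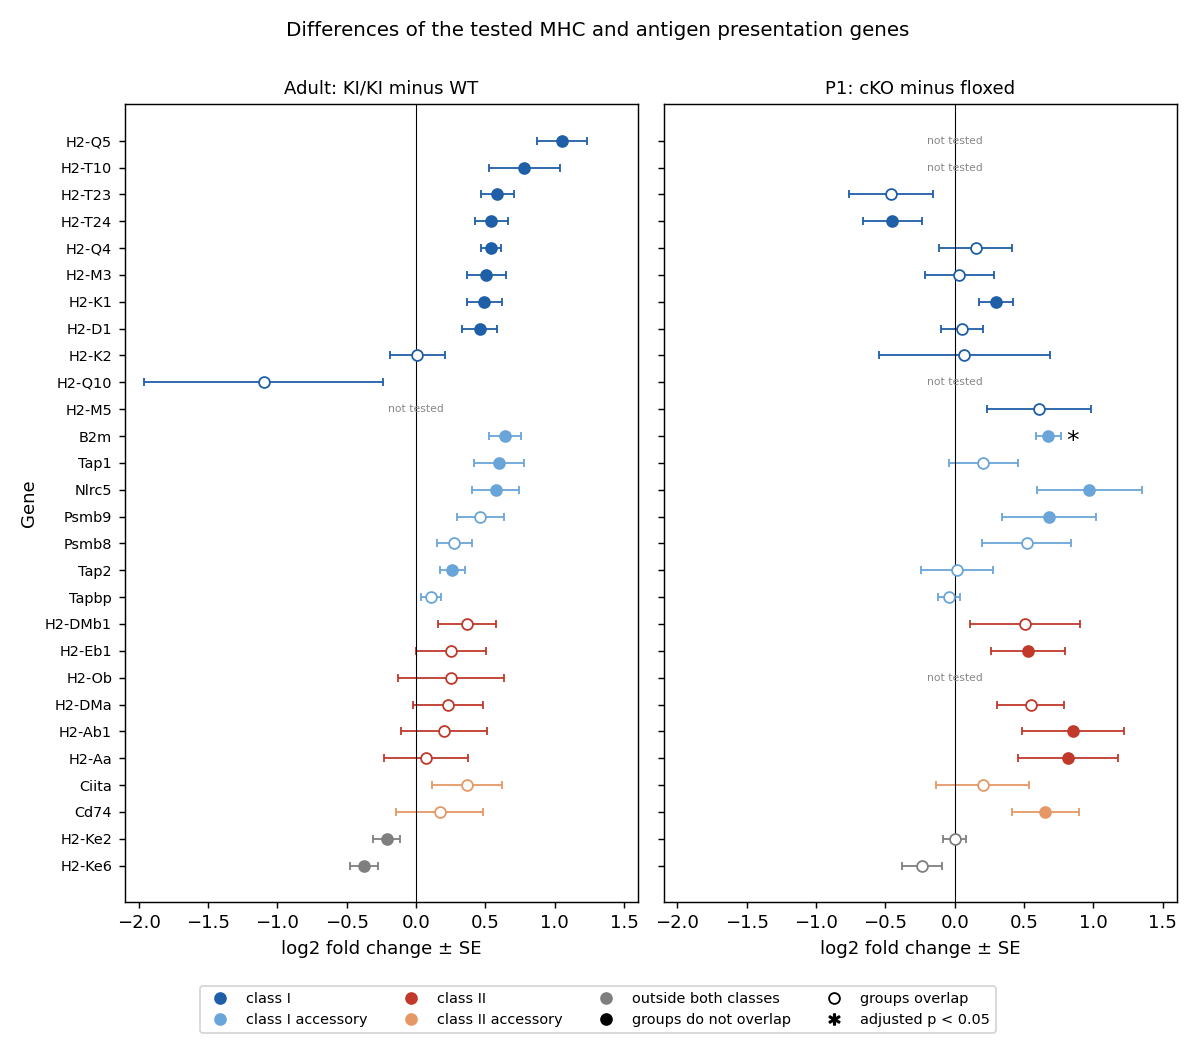
Log2 fold changes with SE (horizontal axis) of the genes tested in at least 1 comparison (vertical axis, grouped by class), for the adult KI/KI minus WT comparison (left) and the P1 cKO minus floxed comparison (right). Filled symbols mark genes whose groups did not overlap and the star the P1 value of B2m with its adjusted p of 0.00871; in adult hearts 8 class I genes with filled symbols lie to the right, H2-K2 lies at 0.01 and H2-Q10 to the left at -1.10, and class II genes have open symbols there and 3 filled ones at P1.

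Summed over each class and normalized over 12 hearts, class I genes held 271 to 313 CPM in WT and 354 to 460 in KI/KI hearts, without overlap. Class II genes held 70.5, 74.0 and 131 CPM in WT and 116, 77.6 and 118 in KI/KI hearts, with overlap. At P1 the class I sums were 47.5 to 54.4 CPM in floxed and 48.7 to 58.6 in cKO hearts, with overlap, and the class II sums 4.07 to 4.42 and 6.21 to 7.09, without. The class II sum divided by the class I sum, used here only to set hearts side by side, was 0.249, 0.273 and 0.42 in WT and 0.329, 0.169 and 0.287 in KI/KI hearts. It was 0.0895, 0.0807 and 0.0857 in floxed and 0.128, 0.128 and 0.115 in cKO hearts. The ratio thus overlapped in adult hearts and was higher in each cKO than in each floxed heart. The difference between the classes was not tested.

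**Figure D4:**
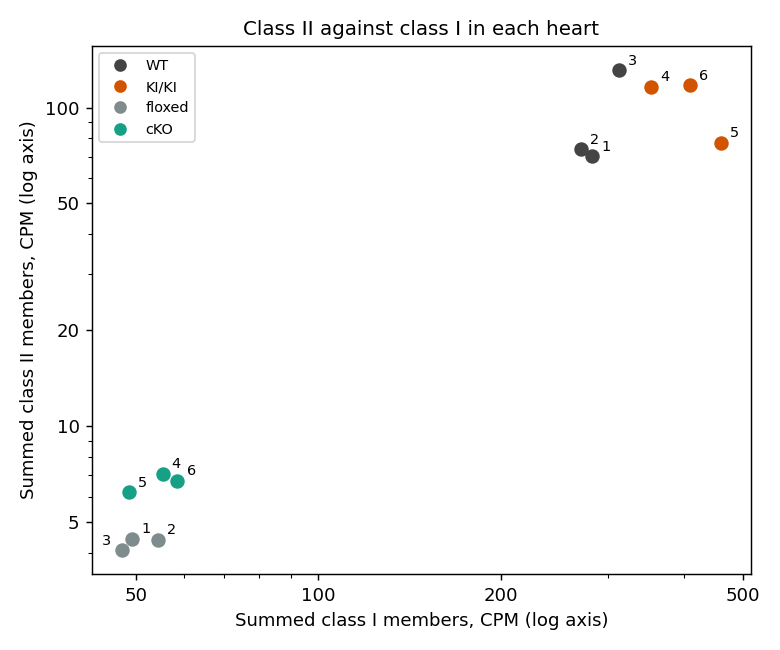
Summed CPM of the 32 class I genes (horizontal, log axis) and of the 10 class II genes (vertical, log axis) in each of 12 hearts, numbered by replicate and coloured by group. KI/KI hearts lie to the right of WT hearts and share their height, while cKO hearts lie above floxed hearts (6.21 to 7.09 against 4.07 to 4.42) and share their horizontal range.

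The difference between the models was tested for each gene as the adult log2 fold change minus the P1 one, in a fit of all 12 hearts. It was called for H2-T24 alone of these genes, where 2.51% of all genes tested were called. H2-T24 differed by 0.99 ± 0.21 (edgeR adjusted p = 0.0366), since it was higher in every KI/KI heart than in every WT heart and lower in every cKO than in every floxed heart. That call was kept without KI/KI 4, floxed 3, cKO 4 or cKO 6, and lost without any 1 of the other 8 hearts, with values from 0.86 to 1.03. H2-T23 differed by 1.04 ± 0.33 and H2-Q5 by 1.32 ± 0.45, with adjusted p of 0.115 and 0.132. DESeq2 called H2-T24 and H2-T23 (adjusted p = 0.0015 and 0.0361). How many of all genes DESeq2 called for this difference was not computed, and the 2.51% above is of edgeR. For B2m, whose differences were 0.64 and 0.68, the value was -0.04 ± 0.15 (adjusted p = 0.907). For the class II genes it ran from -0.90 ± 0.72 (H2-Ob) to -0.14 ± 0.39 (H2-DMb1), with none called. Age and allele cannot be told apart in this test. Of 23 genes tested in both comparisons, H2-K1, B2m and Nlrc5 were higher without overlap in both, as were 4.57% of the 14244 genes tested in both.

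Other genes of the class I pathway, taken from a list of general knowledge, were not called in adult hearts (0 of 13 by edgeR or DESeq2). Of these 2 had an unadjusted p under 0.05 (15.4%, against 16% of all genes). At P1, where 9.15% of all tested genes were called higher and 7.31% lower, 4 of 13 were higher and 2 lower. Those higher were the peptide loading chaperones Pdia3 (339 ± 14.9 CPM in floxed and 473 ± 28.3 in cKO hearts, adjusted p = 0.0146), Calr (363 ± 39.1 and 534 ± 36.8, adjusted p = 0.0172) and Canx (528 ± 51.4 and 709 ± 43.6, adjusted p = 0.0327), and the ISG15-conjugating enzyme gene Ube2l6 (log2 0.52 ± 0.14, adjusted p = 0.0447). These chaperones fold many glycoproteins besides class I. The lower ones were the proteasome activator gene Psme1 (-0.35 ± 0.07, adjusted p = 0.0209) and the insulin-degrading enzyme gene Ide (-0.54 ± 0.09, adjusted p = 0.0137).

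Of 17 class II pathway genes edgeR called none in adult hearts, where 7 had an unadjusted p under 0.05 (41.2%, against 16% of all genes). DESeq2 called Cd63 and the protease gene Ctss higher there, and 2.16% of all genes. At P1, where edgeR called 9.15% of all tested genes higher, 3 were higher. They were the lysosomal protease gene Ctsb (308 ± 11.5 CPM in floxed and 441 ± 11.2 in cKO hearts, adjusted p = 0.00871), Ifi30, a lysosomal thiol reductase (7.39 ± 0.217 and 14.2 ± 3.09, adjusted p = 0.0179), and the tetraspanin gene Cd63 (90.9 and 140 CPM, log2 0.62 ± 0.09, adjusted p = 0.00983). The Rfx and Nfy factors, which bind the X and Y boxes, were not called in either comparison. Of 7 tested costimulation genes 2 were higher at P1, Cd80 (1.44 ± 0.29, adjusted p = 0.0222) and Cd86 (0.93 ± 0.25, adjusted p = 0.0487), the ligands of CD28. None was called in adult hearts by edgeR or DESeq2 (2 with an unadjusted p under 0.05, or 28.6% against 16% of all genes). Of 6 tested CD1 and class I-like genes, Cd1d1, which presents lipids to NKT cells, was lower at P1 (31.0 CPM in floxed and 13.6 in cKO hearts, -1.20 ± 0.14, adjusted p = 0.00671). Of all tested genes 7.31% were called lower there. In adult hearts neither tool called one, and 0 had an unadjusted p under 0.05.

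Genes of interferon gamma signalling were not called by edgeR in either comparison, with 9 and 4 of 17 at an unadjusted p under 0.05 in adult and P1 hearts (52.9% and 23.5%, against 16% and 34.3% of all genes). DESeq2 called 5 higher in adult hearts (Gbp2, Gbp3, Gbp5, Igtp and Irf9), where it called 2.16% of all genes higher. At P1 it called 1 higher (Ifngr1) and 2 lower (Igtp and Iigp1), where it called 13.7% of all genes higher and 11.1% lower. In adult hearts 11 of 17 tested genes had all KI/KI hearts above all WT hearts, where 11.1% of all tested genes did. The median log2 fold change of the 17 was 0.34. Examples were the guanylate-binding protein gene Gbp3 (18.8 and 30.5 CPM, 0.70 ± 0.14, adjusted p = 0.191) and the immunity-related GTPase gene Igtp (15.5 and 22.1, 0.51 ± 0.10, adjusted p = 0.191). At P1 the median was -0.07. Without overlap 2 genes were higher and 1 lower, where 20.9% and 18.8% of all tested genes were. Igtp was the lower one, at 7.73 CPM in floxed and 5.15 in cKO hearts (-0.59 ± 0.20, adjusted p = 0.0832).

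Markers of immune cells were summed in each heart. The macrophage and monocyte markers, 11 of 12 listed, were 258 to 368 CPM in WT and 391.6 to 472 in KI/KI hearts, and 97 to 115 in floxed and 136 to 222 in cKO hearts, with no overlap in either comparison. Of the 11, 6 had all KI/KI hearts above all WT hearts, as did 11.1% of all tested genes. There edgeR called none (5 with an unadjusted p under 0.05, or 45.5% against 16% of all genes). DESeq2 called Cd68 and Fcgr1 higher there, and 2.16% of all genes. Of the 11, 9 had positive log2 fold changes, while Ly6c2 (-0.93 ± 0.67) and Cd14 (-0.03 ± 0.29) had negative ones. At P1, where 9.15% of all tested genes were called higher, 4 of 10 tested markers were, among them Cd68 (1.03 ± 0.17, adjusted p = 0.013) and C1qb (0.94 ± 0.19, adjusted p = 0.0226). Summed dendritic cell markers overlapped in both comparisons (22.9 to 29.8 CPM in WT, 27.9 to 29.4 in KI/KI, 13.3 to 17.5 in floxed and 14.5 to 19.4 in cKO hearts). Zbtb46 was the largest part of this sum in every heart. Of 8 tested in adult hearts, Xcr1 was higher (0.63 ± 0.28) and Siglech lower (-0.99 ± 0.37) without overlap, where 11.1% and 11.3% of all tested genes were. The 8 listed B-cell markers summed to 7.40 to 17.5 CPM in WT and 14.4 to 18.9 in KI/KI hearts, and to 2.28 to 4.16 in floxed and 9.06 to 14.1 in cKO hearts. At P1 this came from Blk (1.42 and 9.99 CPM, adjusted p = 0.00823), since the other 7 markers summed to 1.56 to 2.30 CPM in floxed and 1.88 to 3.04 in cKO hearts. T-cell and NK-cell markers were low, at 3.79 CPM or less in each heart. Only 2 of 10 had enough counts to test at P1. Cd4 was higher there (1.97 ± 0.43, adjusted p = 0.0275), while Lck overlapped (-0.28 ± 0.36, adjusted p = 0.605). Thymus markers summed to 2.23 to 7.05 CPM over all hearts, with Rag2 at 0 in all 12. The part of any of these cells in the class I and class II values was not tested.

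Cells of the heart itself were compared the same way. Endothelial markers summed to 1510 to 1635 CPM in WT and 1564 to 1754 in KI/KI hearts, and to 1317 to 1425 in floxed and 1520 to 1907 in cKO hearts. Fibroblast markers lay at 1998 to 2403 CPM in WT and 2436 to 4755 in KI/KI hearts, and at 6285 to 7087 and 8403 to 9269 at P1. Cardiomyocyte markers, which define the labelled tissue, were abundant in all 12 hearts, at 94150 to 107500 CPM in WT and 74650 to 95780 in KI/KI hearts, and 52260 to 61060 and 44820 to 49270 at P1. The fibroblast sums did not overlap in either model. The endothelial and cardiomyocyte sums did not overlap at P1 either, but overlapped in adult hearts. Of the 8 fibroblast markers, 0 were called in adult hearts by edgeR (3 with an unadjusted p under 0.05, or 37.5% against 16% of all genes) or DESeq2. At P1, where edgeR called 9.15% of all tested genes higher and 7.31% lower, Col1a1, Tcf21 and Postn were called higher. Pdgfra, Dcn and Lum had log2 fold changes of -0.16, -0.14 and -0.16 with overlap. Of 10 endothelial markers, Pecam1 and Flt1 were called higher at P1, and 8 had positive log2 fold changes. Of 10 cardiomyocyte markers, Tnni3, Ryr2, Pln and Ttn were called lower at P1, and 4 had positive log2 fold changes. In adult hearts edgeR called none of either list, and DESeq2 called Emcn higher, where it called 2.16% of all genes higher. KI/KI 5 had both the highest fibroblast and the highest class I sum. Their part in the class I values was not tested.

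Lemd2 lies on chromosome 17 as well, 6.71 to 10.3 Mb from the MHC genes. Whether the chromosome around the edited allele in KI/KI mice is of C57BL/6 or C3H origin, the parent strains of B6C3F1 zygotes, is not given in the sources used here, and its part in the H2 counts, which rest on a C57BL/6 reference genome, was not tested. Among other genes between the first and the last of these genes on that chromosome, 15.7% of 89 tested had adult groups apart, against 22.4% of all tested genes, and their median log2 fold change was -0.02. The adult log2 fold changes were 0.64 for B2m and 0.57 for Nlrc5, which lie on other chromosomes. They were 0.46 to 1.05 for the 8 class I genes apart on chromosome 17. Neither these values nor those of the neighbours measure how reads of another H2 haplotype would align, which was not tested. At P1, 20% of 95 such neighbours were called, against 16.5% of all genes.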

How the data were processed

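Hearts of 12 mice were sequenced as polyA RNA (KAPA mRNA HyperPrep, single-end reads). The authors used Trim Galore for trimming, STAR 2.7.2b for alignment (mm10) and HTSeq for counting, and the deposited values are raw counts per gene. Strand and multiple-match settings are not given in the sources used here. No 2 replicates agreed within sampling noise (chi-square per degree of freedom 19.3 or more).

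Each comparison used its own 6 libraries in edgeR 4.0.16 (R 4.3.3) with TMM normalization, filterByExpr and the robust quasi-likelihood test, with Benjamini-Hochberg adjustment over all genes tested and a threshold of 0.05. Each SE is the log2 fold change divided by the square root of F. Groups do not overlap where every CPM of one exceeds every CPM of the other. DESeq2 1.42.0, RLE size factors, other filters, a 12-heart fit, a Y-linked covariate, non-robust dispersion, a 2-fold threshold and left-out hearts were alternatives, and lung marker settings and other scalings of the overlap counts were added after seeing the values. Scripts were tested on simulated counts. Shared 75-base windows and positions come from GENCODE on GRCm38, and promoters from RefSeq on GRCm38.p6.

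The members and lists were chosen with earlier results of these data known. Per-heart values are given for the main class I, class II and accessory genes, for genes called, and for genes past 2-fold without overlap; those of H2-Q4, H2-T23 and H2-T24 were added after their values were seen. From each pathway list at most 4 genes are named. Floors cover counting error only. The p-values measure the spread between mice.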

Additional observations from a re-analysis of the deposited data

Results flagged for a closer look

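H2-T24 stood out because its effects differed between the models by the interaction test. It was the only one of these genes called, where 2.51% of all genes tested were called, and a single call among them is near that share. The adult log2 fold change minus the P1 one was 0.99 ± 0.21 (edgeR adjusted p = 0.0366), with KI/KI hearts above WT hearts and cKO hearts below floxed hearts in 3 of 3 hearts each. Its reads are hardly shared with other genes (0.459% of 75-base windows). The value ranged from 0.86 to 1.09 in the 12 fits that left out 1 heart, and the adjusted p was under 0.05 in 4 of them (0.0288 to 0.112).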

How the results depend on the processing

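No paired analysis was possible because the groups compared share no replicate numbers. In adult hearts 0 genes were called higher in the main test, 7 with DESeq2, 1 (B2m, 0.63, adjusted p = 0.0463) in the 12-heart fit and 0 to 2 with 1 heart left out. At P1, 1 was called higher, 0 past 2-fold, 2 in the 12-heart fit (with Nlrc5, 0.97, adjusted p = 0.0316) and 0 to 1 with 1 heart left out, and 0 to 1 were then called lower. For the difference between the models the count was 1, 2 with DESeq2 and 0 to 2 with 1 heart left out. The class I median in adult hearts was 0.52, or 0.67 without WT 3 and KI/KI 4. At P1 it was 0.06, or -0.27 with no filter on low counts. With raw library totals 1 adult gene was lower without overlap in place of 2. The cause of these shifts was not tested. The share of all genes called was not computed for the 12-heart fits, the fits with 1 heart left out or the covariate fits. Nor was it computed for the DESeq2 test between the models.

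Changes of sign concerned differences that were not called. H2-K2 in adult hearts was -0.15 without WT 3 and KI/KI 4. H2-Ke2 at P1 was 0.00097 with RLE size factors, 0.0059 with no filter, 0.00077 with DESeq2 and 0.00055 in the 12-heart fit. H2-M3 at P1 was -0.0074 with the Y-linked covariate. With 1 heart left out, the adult values ran from -0.11 to 0.43 for H2-Aa, -0.20 to 0.13 for H2-K2, -0.0084 to 0.76 for H2-Ob and -1.56 to 0.48 for H2-Q10. At P1 they ran from -0.086 to 0.17 for H2-D1, -0.64 to 0.51 for H2-K2, -0.035 to 0.041 for H2-Ke2, -0.081 to 0.16 for H2-M3, -0.21 to 0.35 for H2-Q4, -0.060 to 0.42 for Tap1, -0.33 to 0.21 for Tap2, -0.065 to 0.0045 for Tapbp and -0.020 to 0.44 for Ciita. Low counts limit the P1 class II values, which rest on 9 to 102 counts per library.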
